A study of Homo sapiens with 6 samples.

Results

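MiR-28, miR-151a and miR-708 are 3 hairpin miRNAs whose precursors arose from LINE-2 retrotransposon sequence, and their mature arms were followed here in HEK 293T cells with and without the terminal uridylyltransferases TUT4 and TUT7. The members were taken by name, as the 5p and 3p arm of each hairpin, which makes 6 arms. Of these, 4 had a row among the 1000 mature miRNAs of the count table used here, and 3 passed the filter of a highest count above 7 and were tested among 826 miRNAs. The arms hsa-miR-708-5p and hsa-miR-708-3p had no row among those used here and were not analysed.

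HEK 293T is an immortalized human embryonic kidney line. Small RNA of wild type cells was compared with that of a TENT3A/B double knockout, the same genes under their newer names, which is written ΔTUT4/7 below. Each strain had 3 libraries, labelled as biological replicates and made from total RNA of untreated cultures. The ΔTUT4/7 line was a single existing line received from another laboratory, so a difference between the strains cannot be told apart from a difference between these particular lines.

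LINE-2 elements are ancient retrotransposons that no longer move in the human genome, and copies lying in opposite orientation beside each other can be transcribed as a hairpin. Drosha and Dicer cut such a hairpin into a duplex with a 5p and a 3p arm, and one arm is usually kept in Argonaute while the other is lost. TUT4 and TUT7 add uridines to the 3′ ends of precursor and mature miRNAs, which marks some of them for decay and helps others, with a short overhang, through Dicer. MiR-28 has been studied as a tumour suppressor of B cells, miR-151a as a regulator of cell migration encoded in a gene for a focal adhesion kinase, and miR-708 as a miRNA induced during endoplasmic reticulum stress.

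The hairpins lie in introns of protein-coding genes, miR-151a in PTK2 on the strand of that gene. In hg38 with GENCODE release 44 the miR-28 hairpin (chr3:188688781-188688866, plus strand) lies within an intron of LPP, on the strand of that gene, with miR-28-5p at chr3:188688794-188688815 and miR-28-3p at chr3:188688834-188688855.

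The sequences below show how close the 3p arms of miR-28 and miR-708 are to each other, and which other miRNA has the seed of the miR-28 and miR-708 5p arms. They are RefSeq sequences on GRCh38.p14, written 5′ to 3′, with the seed (bases 2 to 8, the part of a miRNA that pairs with its targets) in capitals.
miR-28-3p: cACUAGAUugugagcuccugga
miR-708-3p: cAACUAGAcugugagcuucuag
miR-708-5p: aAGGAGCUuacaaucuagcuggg
miR-3139: uAGGAGCUcaacagaugccuguu

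MiR-28-3p and miR-708-3p had 17 identical bases of 21 when aligned without gaps, with miR-708-3p starting 1 base earlier. Their seeds differ by that shift, although both arms carry nearly the same letters. With the shift undone, the last base of the miR-28-3p seed, U, still stands against a C in miR-708-3p. The 5p arm of miR-708 (chr11:79402077-79402099, minus strand) has the seed of miR-3139 (chr4:143343469-143343491, plus strand, in an intron of GAB1), and beyond the seed those arms differ. MiR-28-5p has that seed too, and miR-3139 was the only other miRNA of the table with it. No other miRNA of the table had the seed of miR-28-3p or of miR-151a-3p, and miR-151a-5p had its seed in common with miR-151b.

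The repeat origin bears on the counting, because the authors trimmed the reads to 18 nt before aligning them to the genome. The first 18 bases of an arm were therefore searched on both strands of hg38 for exact matches. MiR-28-5p matched 4 places, miR-28-3p 8, miR-151a-5p 9 and miR-151a-3p 3, whereas 732 of the 994 miRNAs with at least 18 bases, or 73.6%, matched 1 place. Only 109 of them (11.0%) matched 3 or more places and 32 (3.22%) matched 8 or more. Both miR-28 arms matched 1 place at their whole length, as did 894 of the miRNAs (89.9%), so for miR-28 the added places came with the trimming. MiR-151a-3p still matched 3 places and miR-151a-5p still matched 5. The trimmed miR-708 arms matched the genome at 17 places (miR-708-5p) and 9 places (miR-708-3p), and each matched 1 place at full length.

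**Figure D1:**
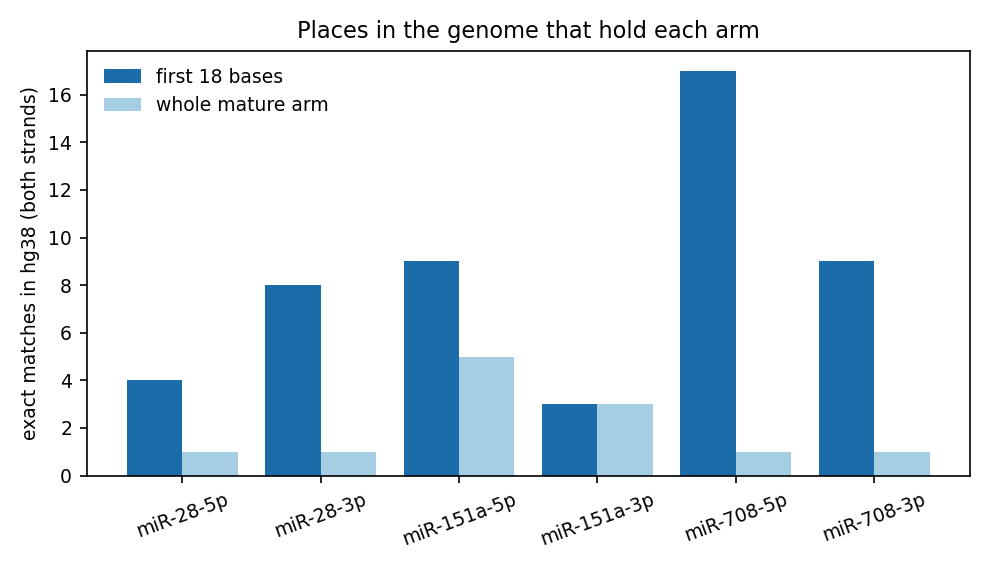
Number of exact matches in hg38, both strands, for each of the 6 member arms, with 1 bar for the first 18 bases and 1 for the whole mature arm. The trimmed miR-708-5p has 17 places and miR-151a-5p has 9, and both miR-28 arms fall to 1 place at full length.

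MiR-151a-5p and miR-151b have the same first 18 bases, so trimmed reads of one are identical to reads of the other. The sources used here name the quantification, Partek's E/M model, but not how it treated reads that match several places. Over the table, miRNAs with more places had lower levels. The median of the mean CPM (the count scaled to the miRNA total of its library) was 4.63 for the 732 miRNAs with 1 place, 4.07 for 220 with 2 to 4, 2.29 for 21 with 5 to 9 and 0.675 for 21 with 10 or more. The part of multiple places in the levels of the member arms was not tested. Uridine tails lie at the 3′ end, which trimming to 18 nt removes, so tailing itself was not measured.

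The 6 libraries held 4338558 to 7967606 miRNA counts, so that 1 count was worth 0.126 to 0.230 CPM. Pairs of replicates varied beyond sampling error: chi-square over its degrees of freedom was 13.3 to 54.9 for the ΔTUT4/7 pairs and 99.2 to 293 for the wild type pairs. Both wild type pairs that included replicate 3 were at the high end, with 284 and 293, so the miR-28-5p, miR-151a-5p and hairpin ratio values below are also given without it. CPM is relative to a total in which let-7 and miR-98 made up 19.2% to 19.7% in ΔTUT4/7 and 5.57% to 6.36% in wild type. MiR-16-5p was also a large part of it, at 176538 ± 1820 CPM in ΔTUT4/7 and 251745 ± 24504 in wild type (SD, n = 3 each). Totals without miR-16-5p were not tried.

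The arm hsa-miR-28-3p was the most abundant member, and it was lower in ΔTUT4/7. Its level was 176, 169.7 and 166.6 CPM in the ΔTUT4/7 libraries 1 to 3 and 245, 298 and 252 CPM in the wild type libraries 1 to 3. All 3 ΔTUT4/7 libraries lay below all 3 wild type libraries, a separation in this direction that 29.5% of the tested miRNAs had. The means were 170.7 ± 4.80 and 265 ± 28.6 CPM (SD, n = 3 each). That is 1.55-fold lower in ΔTUT4/7, with a log2 fold change of -0.63 (SE 0.15, 95% interval -0.97 to -0.30, adjusted p = 0.00556, edgeR quasi-likelihood test, Benjamini-Hochberg adjusted). By mean CPM it ranked 149 in the table.

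The other arm of the same hairpin, hsa-miR-28-5p, was much less abundant and was also lower in ΔTUT4/7. It had 11.6, 13.3 and 12.2 CPM in the ΔTUT4/7 libraries and 27.0, 22.3 and 35.5 in the wild type ones. The ΔTUT4/7 libraries again lay below every wild type library, and wild type replicate 3 was the highest. The mean fell from 28.3 ± 6.67 to 12.4 ± 0.858 CPM (SD, n = 3 each), a level 2.27-fold lower. The log2 fold change was -1.18 (SE 0.23, 95% interval -1.68 to -0.69, adjusted p = 0.00136, edgeR quasi-likelihood test, Benjamini-Hochberg adjusted). Without wild type replicate 3 it was -0.99, with an adjusted p of 0.00240 in edgeR, which is below a 2-fold change.

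The abundant arm of the other hairpin, hsa-miR-151a-3p, did not pass the test. Its CPM was 16.0, 20.2 and 22.6 in ΔTUT4/7 and 18.4, 16.8 and 23.5 in wild type, and the strains overlapped. The means were 19.6 ± 3.36 and 19.6 ± 3.50 CPM (SD, n = 3 each). The log2 fold change of 0.01 had an SE of 0.22 and a 95% interval of -0.48 to 0.49, with an adjusted p of 0.979 in edgeR.

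Its partner, hsa-miR-151a-5p, was close to uncounted. It had 1, 2 and 1 counts in ΔTUT4/7 and 1, 1 and 6 in wild type, or 0.197 to 0.416 and 0.126 to 1.38 CPM. At a highest count of 6 it was not tested, and 6 of its 8 wild type counts came from replicate 3. The pooled rate was 0.274 CPM in ΔTUT4/7, against 0.479 in wild type, with an exact 95% interval of 0.126 to 2.14 for their ratio of 0.574, so a difference was not detectable at this depth. Without wild type replicate 3, an alternative chosen after the counts were seen, the wild type rate was 0.162 CPM and the ratio turned to 1.70 (exact 95% interval 0.244 to 18.8). MiR-151b, the miRNA with the same first 18 bases, had 0, 3 and 3 counts in ΔTUT4/7 and 1, 1 and 3 in wild type. Summed over both, the rows held 10 counts in ΔTUT4/7 and 13 in wild type, a ratio of rates of 0.883 (exact 95% interval 0.346 to 2.18), which turned to 2.12 (0.613 to 9.28) without that library. No direction can be read from either ratio. These intervals cover counting error only.

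**Figure D2:**
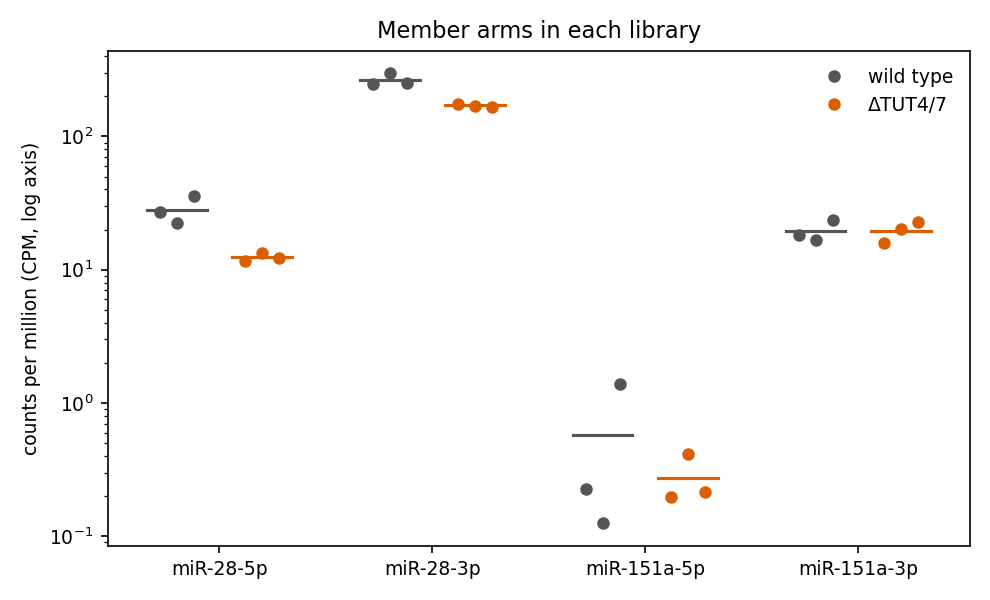
CPM on a log axis for the 4 member arms with a row, with 1 point per library, wild type in grey, ΔTUT4/7 in orange and a line at each strain's mean. The ΔTUT4/7 points lie below the wild type points for miR-28-3p (166.6 to 176 against 245 to 298) and miR-28-5p, and the points of both miR-151a arms overlap.

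The order of the levels differed between the strains for 1 pair of arms. All the arms are 21 or 22 bases long, so CPM was compared without correction for length. Their first 18 bases matched unequal numbers of genome places: miR-28-5p 4, miR-28-3p 8, miR-151a-5p 9 and miR-151a-3p 3. The part of this, or of any other counting difference between sequences, in the order of the arms was not tested. MiR-28-3p was highest and miR-151a-5p lowest in both strains, each apart from its neighbour in the order in every library. Within each of the 3 wild type libraries miR-28-5p was above miR-151a-3p, although their ranges over the libraries overlapped (22.3 to 35.5 and 16.8 to 23.5 CPM). Within each of the 3 ΔTUT4/7 libraries it was below miR-151a-3p, and there the ranges did not overlap (11.6 to 13.3 and 16.0 to 22.6 CPM). The change of order comes with the lower miR-28-5p level given above and is not a separate result. How often other pairs of miRNAs change order was not counted.

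Of the 3 tested arms, 2 passed an adjusted p under 0.05 and both were lower in ΔTUT4/7, where 21.9% of the 826 tested miRNAs were lower, 23.2% were higher and 45.2% changed in either direction. Both are arms of the miR-28 hairpin, so they are not independent members. At a change of at least 2-fold, 1 of the 3, miR-28-5p, was called lower, against 13.6% of all tested miRNAs. The median log2 fold change of the 3 arms was -0.63, the value of miR-28-3p, and that of all tested miRNAs was 0.01. In the order of all tested fold changes, 14.0% lay below miR-28-5p, 27.7% below miR-28-3p and 49.8% below miR-151a-3p. The SEs of the 3 arms were 0.15 to 0.23, near the median of 0.20 among miRNAs above 10 CPM, and the other tested miRNAs were measured less precisely, with a median SE of 0.48.

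**Figure D3:**
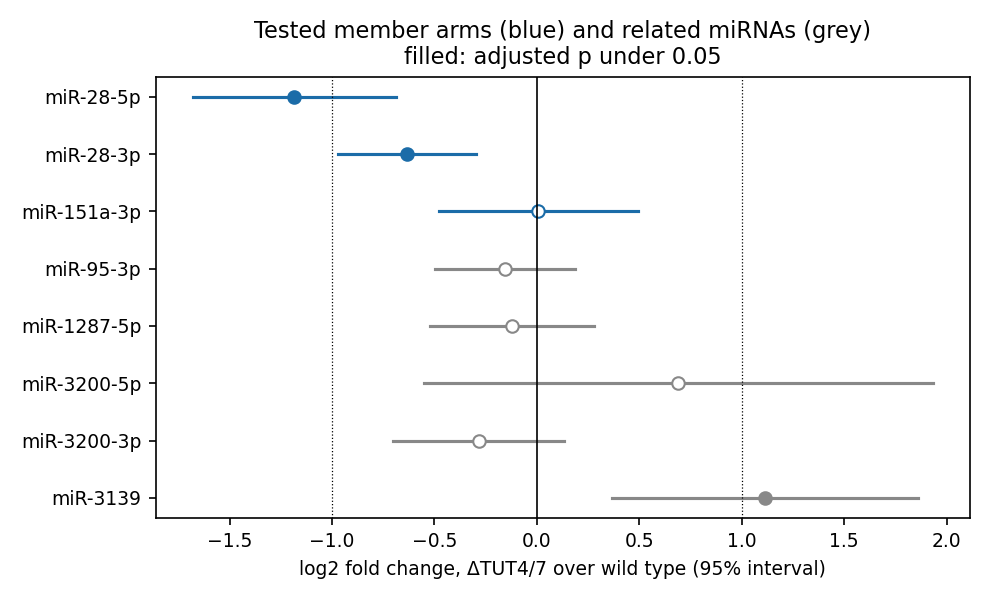
Log2 fold change (ΔTUT4/7 over wild type) with its 95% interval from edgeR for the tested member arms (blue), their tested relatives and miR-3139 (grey), with filled points for an adjusted p under 0.05 and dotted lines at a 2-fold change. MiR-28-5p lies at -1.18 and miR-28-3p at -0.63, with miR-151a-3p at 0.01 and miR-3139 at 1.12.

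The counts of the 2 arms were also summed for each hairpin, which gives the amount of product whichever arm is kept. The miR-28 sum was 183 ± 4.45 CPM in ΔTUT4/7 against 293 ± 24.4 in wild type (SD, n = 3 each), and it was 1.60-fold lower in ΔTUT4/7. Its log2 fold change was -0.68 (SE 0.13, 95% interval -0.97 to -0.39, adjusted p = 0.00211 in edgeR). The sum was tested among 634 entries, in which exactly named pairs of arms were summed and every other miRNA stood alone. Of these entries 22.9% were lower in ΔTUT4/7 and 46.1% changed in either direction. The miR-151a sum was 19.9 ± 3.39 and 20.1 ± 4.20 CPM (SD, n = 3 each), with a log2 fold change of -0.01 (SE 0.21, 95% interval -0.49 to 0.47, adjusted p = 0.964 in edgeR).

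Whether the hairpins responded differently was tested on the ratio of their summed counts within each library, which does not depend on the library total. The ratio of miR-28 to miR-151a was 11.6, 8.89 and 7.83 in ΔTUT4/7 and 14.6, 18.9 and 11.5 in wild type. The strains overlapped in 1 pair of libraries, ΔTUT4/7 replicate 1 and wild type replicate 3. The geometric means were 9.31 and 14.7, a difference of -0.66 on the log2 scale (2-sided exact permutation test, p = 0.2, where the smallest p possible is 0.1). Without wild type replicate 3 the strains did not overlap and the difference was -0.84 (exact permutation p = 0.1). This test cannot reach 0.05 with so few libraries, so it does not settle whether the hairpins differed in their response.

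Both hairpins were represented mainly by the 3p arm. Over the 6 libraries miR-28 had 631 counts of the 5p arm and 7037 of the 3p arm, a 5p share of 8.23% (95% Clopper-Pearson interval 7.62 to 8.87), so that the 3p arm was 11.2-fold more counted. MiR-151a had 12 and 601 counts, a 5p share of 1.96% (1.02 to 3.39) and a 50.1-fold excess of the 3p arm. Without wild type replicate 3 the wild type 5p share of miR-151a was 0.922% (0.112 to 3.29) in place of 2.46% (1.07 to 4.79). These intervals pool libraries and cover counting error only. The miR-28 share lay outside its pooled interval in every library (6.20%, 7.27% and 6.80% in ΔTUT4/7, 9.91%, 6.98% and 12.3% in wild type). Among 263 hairpins with a row for both arms, 120 (45.6%) had a 5p share under 50%, and the median share was 57.2%. A lower 5p share than that of miR-28 was found in 41 of the 263 (15.6%), and one lower than that of miR-151a in 22 (8.37%). Counts assigned to miR-151b stand in a row of their own and are not part of the miR-151a share. The first 18 bases matched 9 genome places for miR-151a-5p and 3 for miR-151a-3p, and 4 for miR-28-5p and 8 for miR-28-3p. The part of these places in the arm shares was not tested.

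The 5p share of miR-28 was 6.20%, 7.27% and 6.80% in ΔTUT4/7 and 9.91%, 6.98% and 12.3% in wild type. Wild type replicate 2 lay among the ΔTUT4/7 libraries and the other wild type libraries lay above them. The means were 6.76% ± 0.539 and 9.75% ± 2.69 (SD, n = 3 each). On the scale of log2(5p/3p), with 0.5 added to each count, the means were -3.78 ± 0.12 and -3.24 ± 0.46 (SD, n = 3 each), a difference of -0.53 (SE 0.27, 95% interval -1.13 to 0.06). It did not pass the test over 200 hairpins (adjusted p = 0.207, limma with Benjamini-Hochberg adjustment), of which 16.0% did. With 3 libraries per strain, the test thus did not resolve whether miR-28-5p fell more than miR-28-3p. The arm ratio of miR-151a was not tested, because its 5p arm did not pass the count filter.

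**Figure D4:**
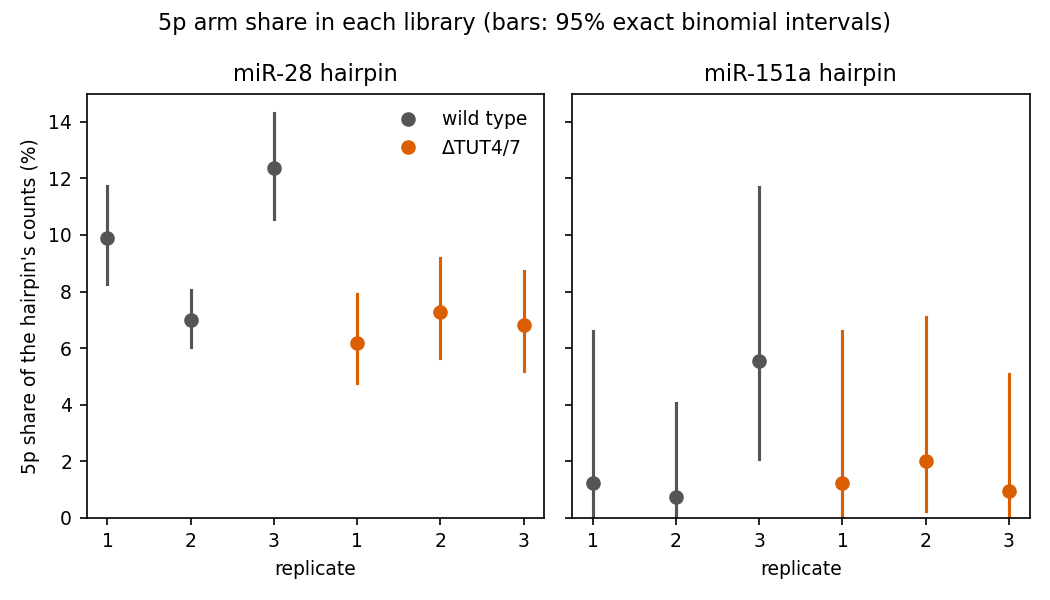
Share of the 5p arm in the counts of both arms, in percent, for miR-28 and miR-151a in each library (wild type grey, ΔTUT4/7 orange), with bars for 95% Clopper-Pearson intervals. For miR-28 the ΔTUT4/7 libraries lie between 6.20% and 7.27% and wild type between 6.98% and 12.3%, and for miR-151a wild type replicate 3 is the highest at 5.56%.

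A list of 11 other miRNAs commonly given as LINE-2 derived or as copies of a member was set beside them. It was chosen with results of these data known. Of these, 6 had a row and 4 were tested. None of the 4 passed an adjusted p under 0.05 in edgeR, and none an unadjusted p under 0.05. Among all tested miRNAs, 45.2% passed the adjusted threshold. The 4 include both arms of the miR-3200 hairpin, which are not independent members. MiR-3200-5p held only 27 counts in ΔTUT4/7 and 20 in wild type. The median log2 fold change of the 4 was -0.14. MiR-95-3p was the most abundant with 269.5 ± 22.5 CPM in ΔTUT4/7 against 300.4 ± 34.0 in wild type (SD, n = 3 each; log2 fold change -0.16, SE 0.16, adjusted p = 0.433 in edgeR). MiR-3200-3p, from an intron of OSBP2, had 160.7 ± 7.02 and 195.9 ± 48.3 CPM (log2 fold change -0.29, SE 0.19). MiR-1287-5p, which overlaps an exon of PYROXD2, had 43.4 ± 2.54 and 47.1 ± 6.50 CPM (log2 fold change -0.12, SE 0.18). MiR-3200-5p stayed under 3 CPM on average in both strains (log2 fold change 0.69, SE 0.57), and its log2 fold change ranged from 0.30 without wild type replicate 1 to 1.40 without wild type replicate 2. MiR-578 and miR-151b were not tested. Without gaps miR-28-3p had 8 identical bases of 16 with miR-95-3p and 8 of 17 with miR-3200-3p, far from its 17 of 21 with miR-708-3p. The first 18 bases of miR-95-3p, miR-1287-5p and both miR-3200 arms matched 1 place in the genome.

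MiR-3139, which has the seed printed above in common with miR-28-5p, moved the other way. It had 4.34, 4.99 and 3.20 CPM in the ΔTUT4/7 libraries and 2.27, 1.88 and 1.61 in the wild type ones, and all ΔTUT4/7 libraries were above all wild type libraries, as for 28.8% of the tested miRNAs. It was 2.17-fold higher in ΔTUT4/7, with a log2 fold change of 1.12 (SE 0.34, 95% interval 0.37 to 1.86, adjusted p = 0.0190 in edgeR). At its low counts the call was lost without wild type replicate 2 (adjusted p = 0.0593), ΔTUT4/7 replicate 1 (0.0504) or ΔTUT4/7 replicate 2 (0.0870), all in edgeR. MiR-28-5p remained more abundant than miR-3139 in both strains, at 12.4 against 4.18 CPM in ΔTUT4/7, and at 28.3 against 1.92 in wild type. The first 18 bases matched 4 genome places for miR-28-5p and 1 for miR-3139, and the part of this in their levels was not tested. MiR-708-5p, which also has this seed, had no row to compare.

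The miRNAs whose pattern over the 6 libraries was most like that of a member were found by the root mean square difference in log2(CPM + 1), each centred on its own mean, among miRNAs above 10 CPM. The choice used these same libraries, so a like separation or overlap of the strains and a like fold change follow from it. For miR-28-3p these were miR-140-3p (0.0312), miR-16-5p (0.0663) and miR-589-3p (0.0904), where the median over 389 miRNAs was 0.452. Each was lower in every ΔTUT4/7 library than in every wild type library, as were 29.5% of all tested miRNAs, with log2 fold changes of -0.66, -0.51 and -0.59. For miR-589-3p the adjusted p of 0.00983 rose to 0.0745 with let-7 and miR-98 removed from the library totals and to 0.0507 without ΔTUT4/7 replicate 2, all in edgeR. For miR-151a-3p the nearest were miR-125a-3p (0.0984), miR-424-5p (0.141) and miR-331-3p (0.147), with a median of 0.404 over 390 miRNAs, and the strains overlapped for each. MiR-331-3p did not pass (adjusted p = 0.235), but it did with let-7 and miR-98 removed from the totals (0.0313) and without wild type replicate 3 (0.0429), all in edgeR.

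The share taken by let-7 and miR-98 moved the size of the miR-28 difference more than any other scaling tried. With those miRNAs removed from the library totals, the log2 fold change was -0.96 for miR-28-5p (adjusted p = 0.00494), -0.41 for miR-28-3p (adjusted p = 0.0444) and 0.23 for miR-151a-3p (adjusted p = 0.416), all in edgeR. The median of all tested miRNAs moved from 0.01 to 0.23 with it. A change of totals shifts all miRNAs by nearly the same amount, so by construction the distance from the median hardly moved, at -1.20 for miR-28-5p and -0.65 for miR-28-3p.

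**Figure D5:**
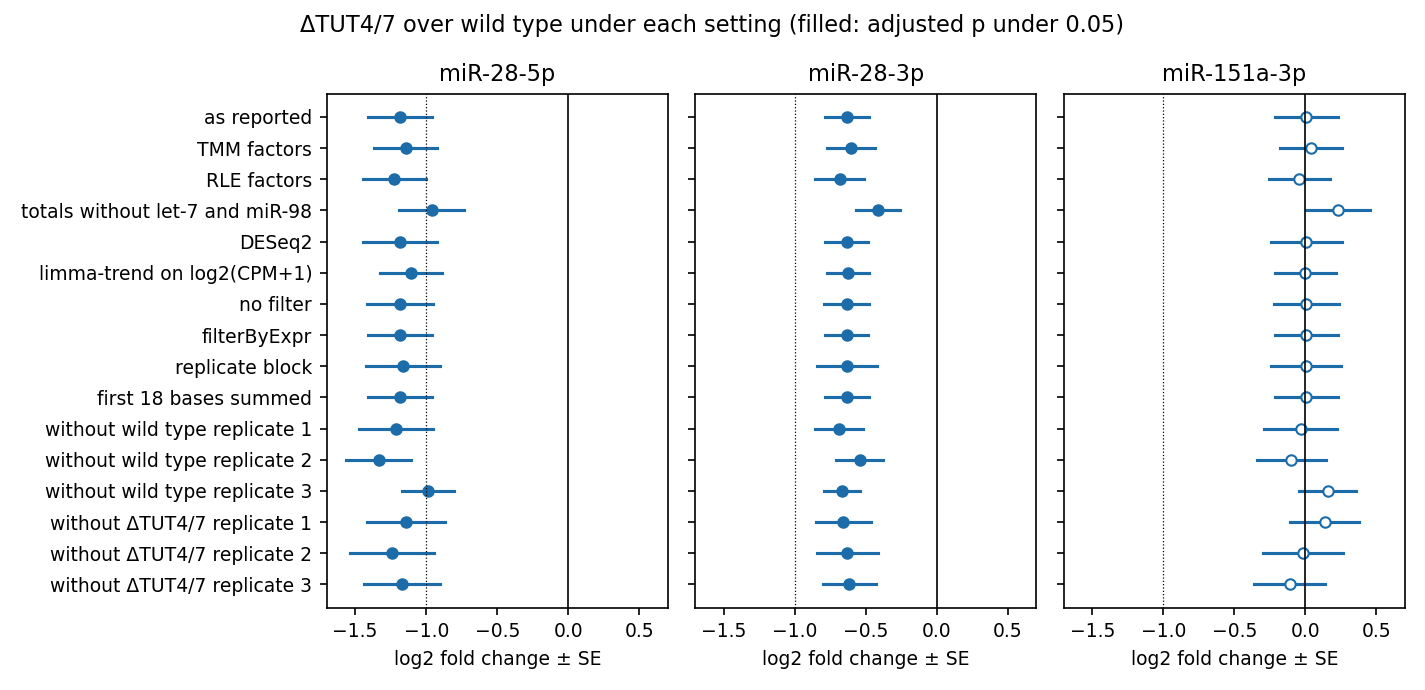
Log2 fold change (ΔTUT4/7 over wild type) with SE for miR-28-5p, miR-28-3p and miR-151a-3p under the reported processing and each alternative. MiR-28-5p stays between -1.34 and -0.96, miR-28-3p between -0.69 and -0.41, and miR-151a-3p lies on both sides of 0.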

How the data were processed

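The deposited table held estimated counts per mature miRNA, all whole numbers, which the authors made in Partek Flow with its E/M quantification on miRBase from reads of the QIAseq miRNA Library Kit, trimmed to 18 nt and aligned to hg38. Partek 10.0.22 and Bowtie 1.0.0 are given in the submitters' processing notes. The sources used here do not say whether reads were collapsed by molecular identifier. The authors' own comparison (p-values, FDR, ratios, fold changes and strain means) was not used. The 3 wild type values of miR-16-5p are written in scientific notation, rounded to 10000 counts, at most 0.115% of a library total.

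Counts were scaled to the total miRNA count of each library (CPM), with normalization factors of 1. A miRNA was tested if its highest count exceeded 7, with edgeR 4.0.16 (quasi-likelihood F test) in R 4.3.3, and p-values were adjusted by Benjamini-Hochberg over all 826. Arm ratios were tested with limma 3.58.1 on log2 ratios with 0.5 added to each arm, over hairpins with both arms above the filter. Ratios of hairpins were tested by exact permutation of the libraries. Pairs with miR-708 could not be formed, so 1 pair of hairpins was compared in place of the 3 planned. Sequences were taken from RefSeq, where 897 of 897 miRNAs of the table also listed there had the same letters in hg38. Python 3.11.15 was used with scipy 1.17.1, numpy 2.4.6, pandas 2.3.3 and, for drawing, matplotlib 3.10.9. The scripts were tested on simulated counts with known changes. The most abundant miRNAs were left unchanged there, so a shift in the make-up of the library totals was not simulated.

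The miRNAs named are the member arms, a list of 11 relatives, every miRNA with the seed or the first 18 bases of a member arm, and the 3 miRNAs nearest in pattern to miR-28-3p and to miR-151a-3p, which are the better counted arms. The members and lists were chosen with earlier results of these data known. The alternatives were TMM and RLE factors, DESeq2 1.42.0, removal of let-7 and miR-98 from the totals, limma on log2(CPM + 1), filterByExpr, no filter on counts, summing miRNAs with the same first 18 bases, a replicate block, other pseudocounts for the arm ratio, and leaving out each of the 6 libraries in turn.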

Additional observations from a re-analysis of the deposited data

How the results depend on the processing

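Over 85 alternatives for the tested member arms, the hairpin sums and the miR-28 arm ratio, none changed the side of the threshold, and none changed a direction that had passed it. The exact permutation tests cannot pass 0.05 and are left out of this count. Over 15 alternatives the adjusted p was 3.65e-05 to 0.00762 for miR-28-5p and 1.35e-04 to 0.0444 for miR-28-3p, and the log2 fold change of the miR-28 sum was -0.73 to -0.46. MiR-28-5p changed by less than 2-fold with totals without let-7 and miR-98 and without wild type replicate 3. The difference in the miR-28 arm ratio was -0.78 without wild type replicate 2 and -0.32 without wild type replicate 3. Same-numbered libraries did not deviate together (correlations of -0.13, -0.10 and -0.17), so no pairing by number was seen. With 3 libraries per strain this check cannot exclude a pairing. With a replicate block the log2 fold change was -1.16 for miR-28-5p, -0.63 for miR-28-3p and 0.01 for miR-151a-3p, and it was -0.68 for the miR-28 sum. The number of hairpins with a changed arm ratio was 32, and it was 11 with the replicate block and 6 to 44 when 1 library was left out, with 6 without ΔTUT4/7 replicate 2, 10 without ΔTUT4/7 replicate 1 or 3 and 16 without wild type replicate 2. The cause was not tested. Calls of at least 2-fold over all miRNAs were 136 higher and 112 lower, and 183 higher and 81 lower with totals without let-7 and miR-98. Depth limits miR-151a-5p, with 12 counts in all, and 3 libraries per strain limit the tests of ratios.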
